A study of Mus musculus with 28 samples.

Results

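The Eomes-KD arm of an embryoid body time course comprised 6 single-nucleus libraries, from days 3.5, 4, 4.5 and 5 of differentiation, and all of their annotated cells were used: 11856 of the 31596 cells in the deposited table. Every library came from the Runx1Venus EomesmCherry-degron mouse ESC line, which carries a Venus reporter for Runx1 and, on Eomes, mCherry and a degron tag through which the small molecule dTAG-13 depletes EOMES protein. Cells were aggregated into embryoid bodies (EBs), given VEGF, BMP4 and Activin A from day 2, and treated with 100 nM dTAG-13 from day 3 to day 4, so the day 4.5 and day 5 EBs were collected after that window had closed. Days 3.5 and 4 were sampled in 2 separate experiments, exp1 and exp2, day 4.5 only in exp1 and day 5 only in exp2. Per the study, starts were staggered within an experiment so that its days could be collected together. The days of 1 experiment are therefore separately started cultures, not 1 culture followed over time. The later day was set against the day before it in each comparison, and no comparison with untreated EBs was made. All libraries derive from 1 engineered line, and EOMES depletion and marker genes were not analysed here, because the table holds cell annotations and no values per gene.

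Eomes encodes a T-box transcription factor that acts in the primitive streak, the site where epiblast cells turn into mesoderm during gastrulation. Early mesoderm that leaves the posterior streak forms extraembryonic mesoderm, which supplies the blood islands and vessels of the yolk sac as well as the allantois, the bud whose vessels become those of the umbilical cord. Primordial germ cells (PGCs), the precursors of sperm and eggs, arise close to the base of the allantois at about the same time.

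The libraries held 1875 (exp1) and 2663 (exp2) cells at day 3.5, 1453 (exp1) and 2966 (exp2) at day 4, 1722 at day 4.5 and 1177 at day 5. Total RNA counts ranged from 15258371 to 42789873 per library. Depth went with the experiment: the median RNA count per cell was 18792 to 22168 in the 3 exp1 libraries and 10527.5 to 12983 in the 3 exp2 libraries, and its part in the results was not tested. Of 11797 distinct cell barcodes, 59 were found in a pair of these libraries, and leaving those cells out left every count of calls given here within 1.5 times its value. Because shares in a library add up to 100%, a lower share of one type does not by itself say that fewer cells of it were made.

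A different cell type led at day 3.5, at day 4 and at the later days. At day 3.5 the leading cell type was early mesoderm EOi, with 66.8% of cells in exp1 and 74.4% in exp2. At day 4 it was posterior mesoderm, with 43.4% in exp1 and 68.9% in exp2, and at days 4.5 and 5 it was allantois, with 36.9% and 68.7%. EOi and EOd are the table's own codes for its early mesoderm types, which the study describes under other names. Evenness did not run one way over the days. The effective number of types, the number of equally common types that would give the same Shannon entropy, was 3.10 (exp1) and 2.45 (exp2) at day 3.5, 4.72 (exp1) and 3.20 (exp2) at day 4, 4.59 at day 4.5 and 2.85 at day 5.

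**Figure D1:**
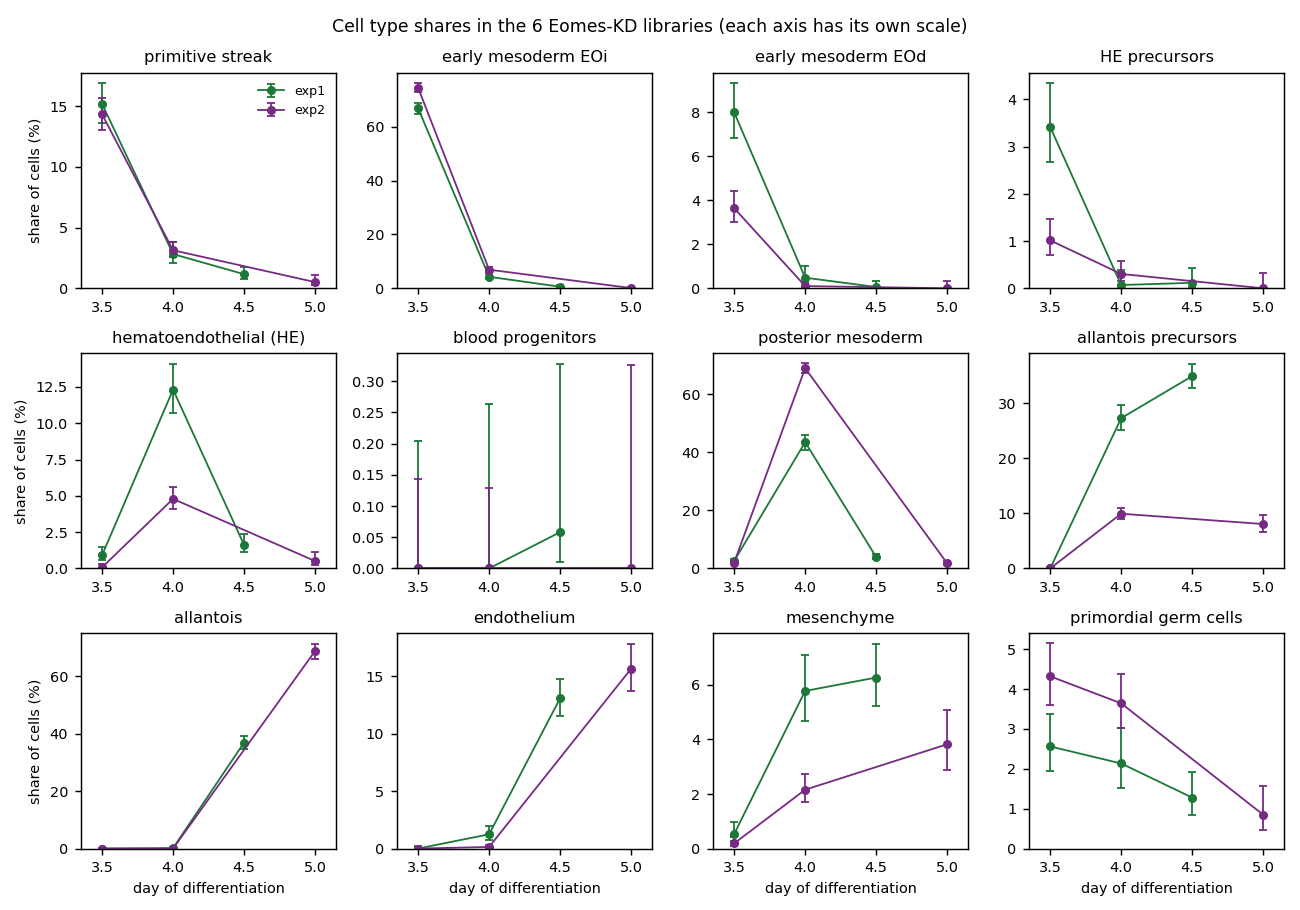
Share of cells (%) in each of the 12 cell types against day of differentiation in the 6 Eomes-KD libraries, with exp1 in green and exp2 in purple, lines joining libraries of 1 experiment and bars giving 95% Wilson intervals, which cover counting error only. Joined libraries are separately started cultures. Early mesoderm EOi led at day 3.5 (66.8% and 74.4%), posterior mesoderm at day 4 (43.4% and 68.9%) and allantois at days 4.5 (36.9%) and 5 (68.7%).

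In 9 of the 12 cell types the day 4 libraries did not overlap the day 3.5 libraries (5 higher and 4 lower at day 4). With edgeR's quasi-likelihood test on cells per type and Benjamini-Hochberg adjustment over 11 types and 3 steps, however, 0 steps passed an adjusted p of 0.05: 0% of the 11 types at day 4 against day 3.5, 0% at day 4.5 against day 4 and 0% at day 5 against day 4.5. At an unadjusted p under 0.05, 8 types differed at the first step, 3 at the second and 0 at the last. The count depended on the method, with 3 of 33 tests called by DESeq2 and 10 by limma on arcsine square root shares. Leaving out either day 3.5 library gave 2 calls, either day 4 library 0, the day 4.5 library 6 of the 11 tests then left, and the day 5 library 3. Taking the experiment as a block, which pairs libraries of 1 experiment, also gave 0 calls. For steps, the spread of a feature in that fit rests only on how far the difference of exp1 from exp2 varied between days 3.5 and 4. Its p-values therefore rest on very little. A test for a change per day over all 6 libraries called 6 of 11 types (54.5%), of which 2 rose and 4 fell. With DESeq2 the calls were also 6, but 4 rose and 2 fell.

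The shared precursor types, primitive streak and early mesoderm EOi, fell over the days. Together they held 82.0% (exp1) and 88.8% (exp2) of cells at day 3.5, 7.09% (exp1) and 10.0% (exp2) at day 4, 1.74% at day 4.5 and 0.595% at day 5. The lists of types used here rest on the lineages that the study describes in this series, so their direction is not independent evidence. They assume that EOi is the early mesoderm that the study places ahead of both lineages and EOd the one it places ahead of the yolk sac lineage, a match that was not tested. Blood progenitors and allantois were added to the end of their lineages by name.

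Early mesoderm EOi, mesoderm that has recently left the streak, had 62 cells (4.27%) in exp1 and 205 cells (6.91%) in exp2 at day 4, against 1253 (66.8%) and 1982 (74.4%) at day 3.5. The share was 15.7-fold lower at day 4 in exp1 and 10.8-fold lower in exp2. In edgeR the step was -3.66 on the log2 scale (SE 0.72, adjusted p = 0.0656; 0.000656 to 0.416 over the alternatives, of which 8 of 16 called it). At the later days only 10 cells (0.581%) at day 4.5 and 1 cell (0.0850%) at day 5 carried this annotation. Its fall over the whole course was 6.56 log2 units per day (SE 0.63, edgeR adjusted p = 0.000664) and was called under every alternative run.

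Primitive streak cells, from which mesoderm forms, made up 2.82% (41 cells, exp1) and 3.14% (93 cells, exp2) at day 4, against 15.2% (285 cells) and 14.3% (382 cells) at day 3.5. The experiments gave almost the same values at each of these days, with a 5.39-fold lower share at day 4 in exp1 and a 4.57-fold lower share in exp2. By day 4.5 the type stood at 1.16% (20 cells), and by day 5 at 0.510% (6 cells). Its fall of 3.29 log2 units per day (SE 0.53) passed the test (edgeR adjusted p = 0.00358) and did so under 15 of 16 alternatives, DESeq2 being the exception (adjusted p = 0.0975).

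The types of the yolk sac list were found mostly at days 3.5 and 4. Early mesoderm EOd, hematoendothelial (HE) precursors, HE cells and blood progenitors together held 12.3% (exp1) and 4.73% (exp2) at day 3.5, 12.9% (exp1) and 5.19% (exp2) at day 4, 1.86% at day 4.5 and 0.510% at day 5. The sum was similar at days 3.5 and 4 within each experiment, but its makeup was not: EOd and HE precursors were the larger part at day 3.5 and HE cells at day 4. The HE cells need not be of the yolk sac. Pooled over the libraries, the extended atlas annotation, described below, labelled 63.1% of them allantois endothelium and 16.8% haematoendothelial progenitors. Its first annotation gave another leading label.

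Early mesoderm EOd had 7 cells (0.482%) in exp1 and 3 cells (0.101%) in exp2 at day 4, against 150 cells (8%) and 97 cells (3.64%) at day 3.5. In exp1 the share was 16.6-fold lower at day 4, and in exp2 the ratio of day 4 to day 3.5 was 0.0278 (95% interval of the counts, 0.00563 to 0.0836). HE precursors, mesoderm committed to blood and vessel, had 1 cell (0.0688%) in exp1 and 9 cells (0.303%) in exp2 at day 4, against 64 cells (3.41%, exp1) and 27 cells (exp2) at day 3.5. Both types fell over the course (change per day, edgeR adjusted p = 0.00358 for EOd and 0.0121 for HE precursors). Without the day 3.5 library of exp1 the HE precursors missed the threshold (adjusted p = 0.0527), and they were called by 11 of 16 alternatives.

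HE cells had their highest shares at day 4. They numbered 17 (0.907%, exp1) and 2 (0.0751%, exp2) at day 3.5, 179 (12.3%, exp1) and 142 (4.79%, exp2) at day 4, 28 (1.63%) at day 4.5 and 6 (0.510%) at day 5. The day 4 share was 13.6-fold above day 3.5 in exp1, where the day 4.5 share was 7.58-fold below day 4. The steps to and from day 4 did not pass the test (edgeR adjusted p = 0.119 and 0.431). Blood progenitors, from which blood cells form, were represented by 1 cell, at day 4.5. The other libraries had 0, and with 3 cells as the floor this leaves room for at most 0.101% in the largest of them (0 of 2966 cells) and 0.255% in the smallest (0 of 1177).

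The types of the allantois list held most cells from day 4 on. Posterior mesoderm, allantois precursors and allantois together held 2.56% (exp1) and 1.99% (exp2) at day 3.5, 70.9% (exp1) and 78.8% (exp2) at day 4, 75.8% at day 4.5 and 78.6% at day 5. The sum thus reached its later level by day 4, and what differed afterwards was the balance among its members.

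Posterior mesoderm, which the study places ahead of the allantois types, held 43.4% (631 cells) in exp1 and 68.9% (2043 cells) in exp2 at day 4, against 2.56% (48 cells) and 1.99% (53 cells) at day 3.5. The share at day 4 was 17.0-fold higher in exp1 and 34.6-fold higher in exp2 (edgeR log2 difference 4.62, SE 0.76, adjusted p = 0.0656). It stood at 3.95% (68 cells) at day 4.5 and 1.78% (21 cells) at day 5, which is 11-fold and 38.6-fold below the day 4 library of the same experiment. The later step, day 4.5 against day 4, was -3.83 on the log2 scale (SE 0.99, adjusted p = 0.0879).

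Allantois precursors were not seen at day 3.5 (0 of 1875 and 0 of 2663 cells, with upper 95% Wilson limits of 0.204% and 0.144%). At day 4 they held 27.3% (397 cells) in exp1 and 9.95% (295 cells) in exp2, at least 171-fold and at least 88.3-fold higher than the floor of 3 cells per library at day 3.5. At day 4.5 they held 35.0% (602 cells) and at day 5 8.07% (95 cells). Within exp1 the share was 7.64 points higher at day 4.5 than at day 4 (95% interval 4.41 to 10.8), and within exp2 the difference of day 5 from day 4 was -1.87 points (-3.69 to 0.107). The step at day 4 missed the threshold in edgeR (adjusted p = 0.0656) and was called by 11 of the 16 alternatives (1.54e-05 to 0.0998).

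Allantois cells, the most mature type of this list, numbered 0 and 0 at day 3.5, 2 (0.138%, exp1) and 0 (exp2) at day 4, 635 (36.9%) at day 4.5 and 809 (68.7%) at day 5. Within exp2 the day 5 share was at least 680-fold above the floor at day 4, and within exp1 the ratio of day 4.5 to day 4 was 268 (95% interval of the counts, 73.9 to 2217). The rise over the course passed the test (edgeR adjusted p = 0.00995, and 0.000701 to 0.0440 over the alternatives). The single step of day 4.5 against day 4 did not (adjusted p = 0.0879).

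Endothelium, the lining of vessels, was the other late type. It numbered 0 and 0 at day 3.5, 18 (1.24%, exp1) and 4 (0.135%, exp2) at day 4, 225 (13.1%) at day 4.5 and 184 (15.6%) at day 5. The day 4.5 share was 10.5-fold above day 4 within exp1, and the day 5 share 116-fold above day 4 within exp2. Endothelium rose over the course (edgeR adjusted p = 0.0158), although without the day 3.5 library of exp1 it missed the threshold (adjusted p = 0.0548). At day 4.5 and day 5 endothelial cells thus outnumbered HE cells, whereas at day 4 HE cells were the more numerous in both experiments.

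Mesenchyme, loose connective mesoderm, made up 0.533% (10 cells, exp1) and 0.188% (5 cells, exp2) at day 3.5, 5.78% (84 cells, exp1) and 2.16% (64 cells, exp2) at day 4, 6.27% (108 cells) at day 4.5 and 3.82% (45 cells) at day 5. The day 4 share was 10.8-fold above day 3.5 in exp1 and 11.5-fold in exp2 (edgeR adjusted p = 0.0970). Exp1 had the higher share at each shared day.

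PGCs had the smallest fold difference between days 3.5 and 4 of the types with cells at both. They made up 2.13% (31 cells) in exp1 and 3.64% (108 cells) in exp2 at day 4, against 2.56% (48 cells) and 4.32% (115 cells) at day 3.5, and stood at 1.28% (22 cells) at day 4.5 and 0.850% (10 cells) at day 5. Within exp1 the difference of day 4 from day 3.5 was -0.426 points (95% interval -1.46 to 0.651), and within exp2 -0.677 points (-1.72 to 0.345). The day 4 and day 3.5 libraries overlapped, and the change per day did not pass (edgeR log2 slope -1.40, SE 0.57, adjusted p = 0.0794). It did pass with the experiment as a block (adjusted p = 0.0438), the only cell type whose call the block moved. Because the PGC type is itself an atlas label transferred onto the clusters, most of these cells had belonged to EOi before it was set: 95.8% (exp1) and 98.3% (exp2) at day 3.5, 64.5% (exp1) and 61.1% (exp2) at day 4, and 86.4% at day 4.5. At day 4 a further 25.8% (exp1) and 28.7% (exp2) had belonged to posterior mesoderm. The median score of the extended atlas label of these cells, described below, was 0.52 (exp1) and 0.48 (exp2) at day 3.5. It was 0.84 (exp1) and 0.60 (exp2) at day 4 and 1 at day 4.5. The score of the label that set the type was not analysed.

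**Figure D2:**
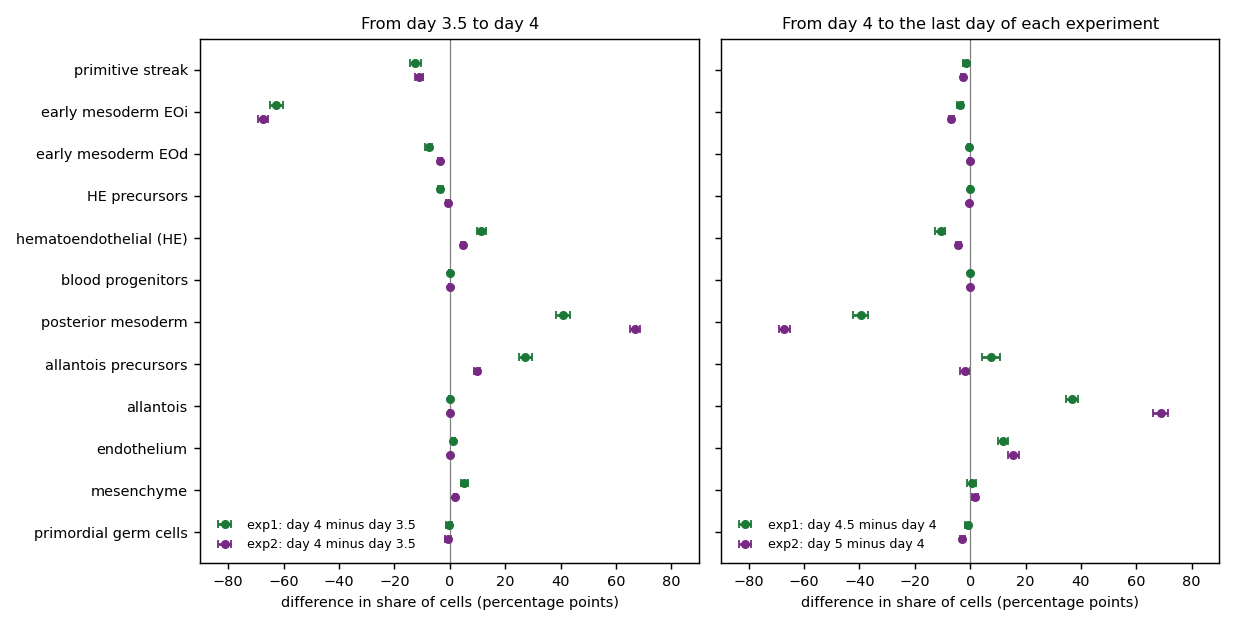
Difference in share of cells (percentage points, later day minus earlier day) within each experiment for the 12 cell types, with exp1 in green and exp2 in purple and bars giving 95% intervals of a difference of 2 shares (counting error only). The left panel gives day 4 minus day 3.5, where EOi differed by -62.6 (exp1) and -67.5 (exp2) points, and the right panel the last day of each experiment minus day 4, where allantois differed by 36.7 (day 4.5, exp1) and 68.7 (day 5, exp2) points.

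Both experiments gave the same direction at day 4 against day 3.5 for every type with cells in both experiments, as the plot of steps within each experiment shows, but the sizes differed. Posterior mesoderm was 40.9 points higher in exp1 and 66.9 points higher in exp2, whereas allantois precursors were 27.3 points higher in exp1 and 9.95 in exp2. HE cells were 11.4 points higher in exp1 and 4.71 in exp2. At day 4 exp1 thus held higher shares of allantois precursors, HE cells, mesenchyme and endothelium and lower shares of posterior mesoderm and EOi. Whether these differences between the experiments exceed the spread of repeated EB cultures was not tested, with 1 library per experiment and day.

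In the main edgeR fit more steps were called for the 18 clusters, from which the types were assembled, than for the types. This depended on the fit: of 48 cluster steps and 33 type steps, DESeq2 called 7 and 3, limma 12 and 10, and TMM normalization factors 7 and 9. Of 16 clusters with 10 or more cells, 10 were called at day 4 against day 3.5 (62.5%), 5 at day 4.5 against day 4 (31.2%) and 0 at day 5 against day 4.5 (0%, with 0 at an unadjusted p under 0.05, 0 by DESeq2 and 1 by limma). The change per day was called for 11 clusters (68.8%), of which 2 rose and 9 fell. With the experiment as a block, whose spread has the limit given above, 24 of 48 steps were called (15, 8 and 1). The 15 steps called were 5 higher and 10 lower, against 7 higher and 0 lower with either DESeq2 or TMM factors. TMM multiplies the cell total by a factor, and DESeq2 uses its own size factors in place of the cell total. Of the changes per day, DESeq2 called 4 higher and 4 lower, TMM 2 higher and 4 lower. Without the day 4 library of exp1, or without that of exp2, 0 of 48 were called, and with the day 3.5 or the later libraries left out in turn, 13 to 21 were. The number of tests was 48 without either day 3.5 library, 16 without the day 4.5 library and 32 without the day 5 library, so these counts are not comparable as they stand.

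**Figure D3:**
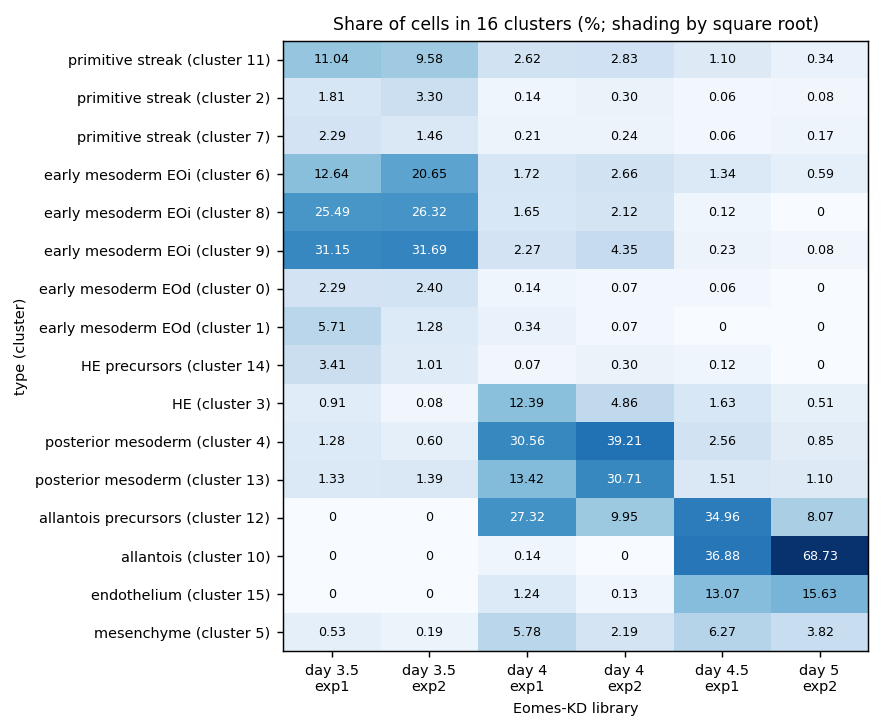
Share of cells (%) in the 16 clusters with 10 or more cells in the 6 Eomes-KD libraries (columns) with the cell type each cluster was given (rows), shaded by the square root of the share. The EOi clusters 8 and 9 hold 25.5% to 31.7% at day 3.5, the posterior mesoderm clusters 4 and 13 hold 13.4% to 39.2% at day 4, and cluster 10 holds 36.9% at day 4.5 and 68.7% at day 5.

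All 3 EOi clusters fell at day 4. Cluster 9 held 2.27% (exp1) and 4.35% (exp2) at day 4, against 31.1% and 31.7% at day 3.5 (log2 difference -3.24, SE 0.71, adjusted p = 0.0341). Cluster 8 held 1.65% and 2.12% at day 4, against 25.5% and 26.3% at day 3.5 (-3.77, SE 0.68, adjusted p = 0.0236). Cluster 6 held 1.72% and 2.66% at day 4, against 12.6% and 20.7% at day 3.5 (-2.91, SE 0.71, adjusted p = 0.0387). Clusters 8 and 9 fell again at day 4.5, to 0.116% and 0.232%, against 1.65% and 2.27% in the day 4 library of the same experiment (adjusted p = 0.0433 and 0.0457 against both day 4 libraries). Cluster 6, which held most of the PGCs, stood at 1.34% at day 4.5 and 0.595% at day 5 and was not called at those steps (adjusted p = 0.543 and 0.451). Whether it differs from clusters 8 and 9 in this was not tested.

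Both posterior mesoderm clusters rose at day 4 and fell at day 4.5. Cluster 4 held 30.6% (exp1) and 39.2% (exp2) at day 4, against 1.28% and 0.601% at day 3.5 (log2 difference 5.22, SE 0.82, adjusted p = 0.0236), and 2.56% at day 4.5 (-3.77 against day 4, SE 1.02, adjusted p = 0.0433). Cluster 13 held 13.4% (exp1) and 30.7% (exp2) at day 4, against 1.33% and 1.39% at day 3.5 (4.01, SE 0.79, adjusted p = 0.0236), and 1.51% at day 4.5 (-3.87 against day 4, SE 1.06, adjusted p = 0.0433). Much of the difference between experiments in posterior mesoderm at day 4 therefore sat in cluster 13, which made up 30.7% of that type in exp1 and 44.1% in exp2.

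Among the remaining calls at day 4, primitive streak clusters 2 and 7 and EOd cluster 0 fell, while the allantois precursor cluster 12 and the mesenchyme cluster 5 rose (adjusted p = 0.0236 to 0.0433). Cluster 10, the allantois cluster, rose at day 4.5 (adjusted p = 0.0236). Several of these clusters hold nearly the same cells as a type that was not called, for example cluster 12 and allantois precursors (adjusted p = 0.0236 as a cluster, 0.0656 as a type). The counts in that pair are identical, and the spread estimated over the features and the number of tests differ. Within the primitive streak type, cluster 11 made up 92.7% (exp1) and 84.9% (exp2) of cells at day 4, against 72.3% and 66.5% at day 3.5.

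Matching to an atlas of mouse gastrulation, which spans embryonic days (E) 6.5 to 8.5, placed later EBs at later stages. Most cells matched E7.25 at day 3.5 (67.5% in exp1, 65.9% in exp2) and E8.0 at day 4 (50.1%, 51.8%). At day 4.5 E8.25 (39.5%) and E8.0 (39.3%) had nearly the same share, and at day 5 E8.25 led (38.0%) with E8.5 at 22.8%. The mean matched stage was 7.20 (exp1) and 7.29 (exp2) at day 3.5, 7.89 (exp1) and 7.83 (exp2) at day 4, 8.06 at day 4.5 and 8.17 at day 5. The atlas ends at E8.5, so a cell cannot be matched beyond it. The median stage score, a fraction taken from the nearest atlas cells, was only 0.44 to 0.52 per library. At day 3.5, 1 atlas cell was the nearest to 10.9% (exp1) and 13.6% (exp2) of cells. Small differences in mean stage should be read with these limits.

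**Figure D4:**
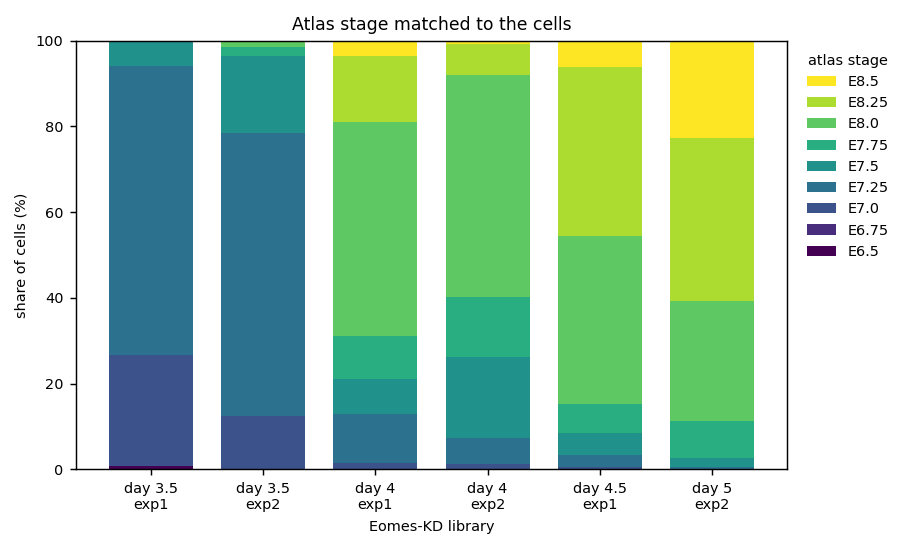
Share of cells (%) matched to each atlas stage, from E6.5 to E8.5, in the 6 Eomes-KD libraries. Stages of E8.0 and later take 0.213% and 1.54% of cells at day 3.5, 69.0% and 59.8% at day 4, 84.8% at day 4.5 and 88.6% at day 5.

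At day 4 against day 3.5, 3 of 8 stages were called (37.5%), all higher: E8.0, E8.25 and E8.5 (edgeR adjusted p = 0.0264, 0.0161 and 0.0260). E8.0 held 728 cells (50.1%, exp1) and 1536 cells (51.8%, exp2) at day 4, against 4 cells and 40 cells at day 3.5. E8.25 held 15.3% and 7.35% at day 4, against 0 cells and 1 cell at day 3.5. With the experiment as a block 5 stages were called, E7.0 (lower) and E7.75 (higher) joining them, and DESeq2 called 3 higher and 2 lower. Leaving out the day 3.5 library of exp1, or either day 4 library, left 0 of the steps called. None of the 8 stages was called at day 4.5 against day 4 (0%) or at day 5 against day 4.5 (0%), with 0 at an unadjusted p under 0.05 in both and 0 by DESeq2, and limma called 1 at the first of these steps. Over the course in edgeR E7.0 and E7.25 fell (25% of the 8 stages), by 5.78 and 4.76 log2 units per day (adjusted p = 0.0101 for each), and both calls held under every alternative run, although DESeq2 and TMM called 2 stages higher as well.

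The experiments agreed on the leading stage but not on its neighbours. At day 3.5, E7.0 took 25.9% of cells in exp1 and 12.5% in exp2, and E7.5 took 5.55% in exp1 and 17.9% in exp2. At day 4 the order was the other way for the latest stages, with E8.25 and E8.5 together at 18.9% in exp1 and 8.02% in exp2. The median RNA count per cell was higher in exp1 at both days.

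Mean matched stages also differed between days within a type. EOi cells had a mean matched stage of 7.43 (exp1) and 7.58 (exp2) at day 4, against 7.20 and 7.30 at day 3.5, and posterior mesoderm cells 7.83 and 7.85 at day 4, against 7.30 and 7.40 at day 3.5. Allantois precursors had lower values after day 4. Their mean was 8.10 (exp1) and 8.11 (exp2) at day 4, 8.03 at day 4.5 and 7.99 at day 5, and the share of them matched to E8.25 was 47.1% and 52.9% at day 4 and 19.6% at day 4.5. The mean stage of allantois cells was 8.19 at day 5 and 8.19 at day 4.5. These means cover the cells of 1 library each and were not tested.

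The table gives each cell a label from the first annotation of the atlas and one from its later, extended annotation, both taken from the same nearest atlas cells, and the labels tested here are the extended ones. Of 29 extended labels given to the cells, 9 reached 5% in a library or were called, and the other 20 summed to 4.84% to 10.4% per library. Nascent mesoderm, mesoderm just out of the streak, held 62.9% (exp1) and 54.3% (exp2) at day 3.5, 6.13% (exp1) and 2.36% (exp2) at day 4, 0.697% at day 4.5 and 0 cells at day 5. Lateral plate mesoderm, which forms body wall, heart and vessel precursors, held 7.57% and 11.9% at day 3.5, 56.2% and 55.5% at day 4, 21.4% at day 4.5 and 8.92% at day 5. In the first annotation, ExE mesoderm was the leading label at day 4, with 57.5% in exp1 and 55.8% in exp2, and held 22.5% at day 4.5 and 8.92% at day 5. Within posterior mesoderm at day 4 it covered 77.3% (exp1) and 65.5% (exp2). The allantois label held 0 cells at day 3.5, 14.5% and 5.50% at day 4, 60.6% at day 4.5 and 74.1% at day 5. Labels therefore passed from nascent through lateral plate mesoderm to allantois in the same order as the types, which were drawn from the same nuclei and are not independent of them.

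Of 18 labels tested, 0 were called at any step (0% at day 4 against day 3.5, 0% at day 4.5 against day 4 and 0% at day 5 against day 4.5), with 7, 1 and 0 at an unadjusted p under 0.05. DESeq2 called 4 of the 54 steps and limma 5. With the experiment as a block 15 were called, 11 at day 4 against day 3.5 and 4 at day 4.5 against day 4. In that fit the labels allantois, allantois endothelium and venous endothelium rose at day 4 and nascent mesoderm and primitive streak fell (edgeR adjusted p = 2.47e-07 to 0.000245). The spread behind these values is only the variation of the difference of exp1 from exp2 between days 3.5 and 4. Such small values are thus not strong evidence. The change per day was called for 4 labels (22.2%): endocardium rose (adjusted p = 0.0303), and primitive streak, nascent mesoderm and anterior primitive streak fell (adjusted p = 0.00741, 0.00741 and 0.0341). DESeq2 called 4 higher and 2 lower, and TMM 1 higher. With the block, nascent mesoderm and primitive streak kept the call. Leaving out the day 5 library left 0 calls, the adjusted p of these 2 labels then being 0.0504, and leaving out the day 3.5 library of exp2, either day 4 library or the day 4.5 library left 2.

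Intermediate, paraxial and presomitic mesoderm labels, which in the embryo give kidney, somites and their forerunners, were mostly found in exp2. Together they held 0.747% (exp1) and 6.01% (exp2) at day 3.5, 4.47% (exp1) and 23.4% (exp2) at day 4, 0.871% at day 4.5 and 0.425% at day 5. The intermediate mesoderm label alone was given to 5 cells in exp1 and 298 cells in exp2 at day 4. In exp2, 69.1% of these 298 cells were typed as posterior mesoderm and 25.8% as EOi, so that a type with 1 name carried a different mix of labels in each experiment. Within posterior mesoderm at day 4, the lateral plate label covered 80.0% in exp1 and 66.3% in exp2. The median label score of that type, the share of the nearest atlas cells that carry the label, was 0.80 in exp1 and 0.72 in exp2, and its median RNA count per cell 18378 and 10296.

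The mix of extended labels differed between types. Allantois cells carried the allantois label in 97.8% (day 5) and 99.1% (day 4.5), and EOd cells the nascent mesoderm label in 98.7% (exp1) and 89.7% (exp2) at day 3.5. Allantois precursors were split between allantois and lateral plate mesoderm: the allantois label covered 50.4% (exp1) and 46.1% (exp2) at day 4, 64.6% at day 4.5 and 67.4% at day 5. HE precursors at day 3.5 were split between haematoendothelial progenitors (50.0% in exp1, 33.3% in exp2) and nascent mesoderm (43.8%, 51.9%). EOi cells carried the nascent mesoderm label in 37.1% (exp1) and 8.78% (exp2) at day 4, against 77.7% and 64.7% at day 3.5.

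**Figure D5:**
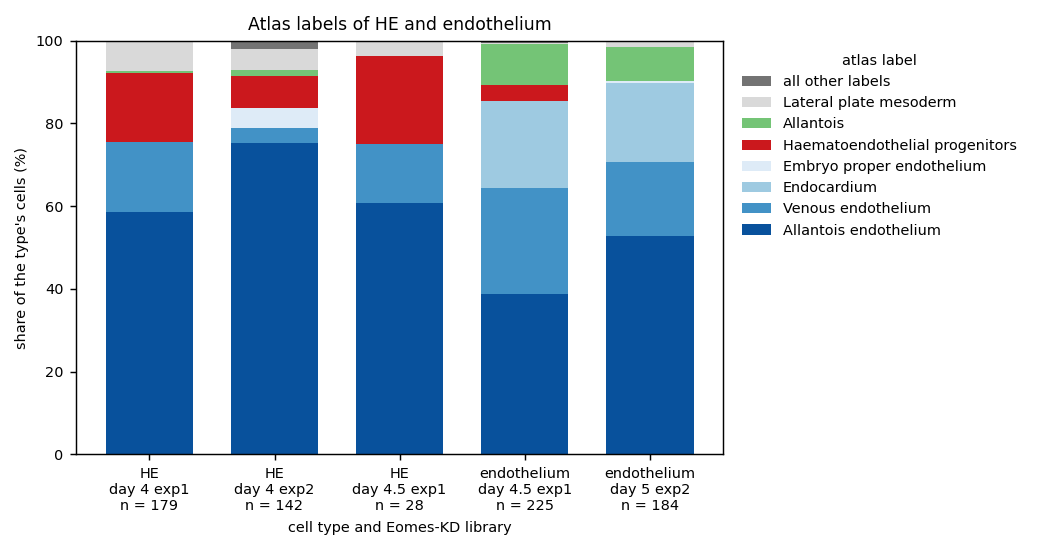
Extended atlas labels (% of the type's cells) of HE cells at days 4 and 4.5 and of endothelium at days 4.5 and 5 in the libraries with 20 or more such cells, whose number is given under each bar. Allantois endothelium is the leading label in every bar (38.7% to 75.4%), and endocardium appears in the endothelium bars, at 20.9% (day 4.5) and 19.0% (day 5).

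The leading label of the cells typed as HE depended on the annotation of the atlas. In the first annotation the haematoendothelial progenitor label covered 85.5% (exp1) and 92.3% (exp2) of HE cells at day 4 and 92.9% at day 4.5. In the extended annotation, at day 4, it covered 30 of 179 cells (16.8%) in exp1 and 11 of 142 cells in exp2, while allantois endothelium covered 58.7% and 75.4%. At day 4.5, with 28 HE cells, allantois endothelium covered 60.7% (95% interval 42.4 to 76.4).

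In endothelium the first annotation was split between haematoendothelial progenitors (63.6% at day 5, 44.0% at day 4.5) and endothelium (27.7% at day 5, 45.8% at day 4.5). In the extended annotation allantois endothelium covered 52.7% at day 5 and 38.7% at day 4.5, venous endothelium 17.9% at day 5 and 25.8% at day 4.5, and endocardium, the inner lining of the heart, 19.0% at day 5 and 20.9% at day 4.5. The endocardium label was absent from every library of days 3.5 and 4 (0 cells in each) and held 48 cells (2.79%) at day 4.5 and 35 cells (2.97%) at day 5. The allantois endothelium label as a share of all cells stood at 7.98% (exp1) and 4.11% (exp2) at day 4, 6.10% at day 4.5 and 8.75% at day 5. What differed was its type: HE held 90.5% (exp1) and 87.7% (exp2) of the cells with this label at day 4, and endothelium held 82.9% of them at day 4.5 and 94.2% at day 5. Labels of blood cells were found on 1 cell, at day 4.5, which was typed as endothelium. The 1 cell typed as a blood progenitor carried the haematoendothelial progenitor label.

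The last step, day 5 against day 4.5, set 1 exp2 library against 1 exp1 library, so the day and the differentiation cannot be told apart in it. Allantois held 68.7% at day 5 and 36.9% at day 4.5, and allantois precursors 8.07% at day 5 and 35.0% at day 4.5. At day 4 the exp2 library had also held fewer allantois precursors than the exp1 library, 9.95% and 27.3%. Endothelium was at 15.6% at day 5 and 13.1% at day 4.5, a difference of 2.57 points. Its interval of -0.0130 to 5.22 covers counting error only, so it does not say whether the days differ. None of the 4 annotations had a called step here in edgeR without a block, as given above.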

How the data were processed

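RNA and open chromatin were measured in the same nuclei of mouse EBs by 10x Genomics multiome. Per the submitters' processing notes the authors used Cell Ranger ARC 2.0.1 and build mm10. They filtered cells on RNA and chromatin quality, removed doublets with scds, clustered both modalities jointly with MOFA+, grouped the clusters into types, and transferred labels and stages from a gastrulation atlas to each library separately.

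The RNA counts per cell and the genes per cell in the deposited table are counts, not normalized. The authors computed the percent of mitochondrial and ribosomal counts per cell. The doublet score was deposited as the authors' scds score. The label and stage scores are a fraction that the authors took from the nearest atlas cells (all whole multiples of 1 of 25, tolerance 1e-06). The table has 28 columns, of which 12 were not used, 16 were, and 0 cells lacked a library. Expression and chromatin values per gene were not analysed here.

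Cells per feature and library were tested with edgeR 4.0.16 (R 4.3.3; limma 3.58.1, DESeq2 1.42.0), with the cell total as library size, features with 10 or more cells over the 6 libraries, no abundance trend, 1 group per day (or day as a slope), and p-values adjusted over features and steps by Benjamini-Hochberg (threshold 0.05). Since days 4.5 and 5 had 1 library each, their spread is assumed to equal that of days 3.5 and 4. The study states that an experiment's EBs were collected together after staggered starts, so the experiment pairs libraries by collection and not by culture. Over 10 types the log2 difference of exp1 from exp2 at day 3.5 correlated with that at day 4 at 0.272, with the same sign in 7. Allantois precursors and endothelium, both among those 7, had 0 cells in either day 3.5 library. Their day 3.5 value (0.506 each) reflects only a pseudocount of 0.5 cells and the cell totals, so neither informs the pairing. Shares have Wilson intervals (95%), which cover counting error only, ratios of counts exact ones. Every cell type, stages of 1% or more, and labels and clusters of 5% or more in a library or called are described. Members, lists, tests and alternatives were chosen with earlier results of these data known. The libraries of a day are separate EB cultures of 1 line, so p-values of steps measure the spread between those cultures. In the change per day, departures from a straight line over the days also enter the spread. The edgeR common dispersion of the cell types was 1.41 for the change per day and 0.354 for the steps.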

Additional observations from a re-analysis of the deposited data

Results flagged for a closer look

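Among all features with 10 or more cells, the difference of day 4 from day 3.5 ran in opposite directions in exp1 and exp2 for 2 atlas labels. Caudal epiblast, the epiblast of the tail end of the embryo, differed by 0.0310 percentage points in exp1 and by -1.45 in exp2. Haematoendothelial progenitors differed by -0.0049 points in exp1 and by 0.650 in exp2. Both exp1 values are near 0, with 1 library per experiment and day the difference between experiments was not tested, and no group had the 4 libraries that a check for outlying samples needs.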

How the results depend on the processing

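The calls of single steps depended on the processing, and the cause was not tested. For steps between days, the main fits called 0 cell types, 0 atlas labels, 3 stages and 15 clusters. TMM factors gave 9, 4, 0 and 7 calls, DESeq2 3, 4, 5 and 7, limma 10 cell type, 5 label and 6 stage calls, all 14 libraries in the fit 12, 6 and 6, and cells at or above the median RNA count 8, 1, 6 and 5. Leaving out the minimum cell number gave 5 label calls, leaving out the cells of highest doublet score 4 cell type calls, and leaving allantois cells out of the total 3. The experiment as a replicate block gave 15 label, 5 stage and 24 cluster calls, 2 label calls for the change per day, and moved no other count by over 1.5 times. For the change per day, TMM gave 1 label (4 in the main fit), 4 stages (2) and 6 clusters (11), DESeq2 5 stages, and limma 4 stages and 6 clusters. TMM, which multiplies the cell total by a factor, and DESeq2, which replaces it with size factors, shifted the median log2 slope of the cell types by 0.91 and 1.81. Of the steps of clusters, 5 higher and 10 lower calls became 7 higher and 0 lower with either. Of the slopes of cell types, 2 higher and 4 lower became 4 higher and 2 lower with DESeq2. Without 1 library in turn, steps ranged from 0 to 6 calls for cell types, 0 to 4 for stages and 0 to 21 for clusters, and slopes from 0 to 5 for labels and 2 to 4 for stages. Fewer steps could be tested without the day 4.5 or the day 5 library, so the ranges for steps mix different numbers of tests.

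No called direction reversed. Directions of uncalled changes did: the HE slope became 0.80 with DESeq2, 0.20 with TMM, 0.44 without allantois in the total, 0.07 without the day 4 library of exp1, 0.06 without day 4.5 and 4.44 without day 5 (-2.53 to 4.44 without 1 library). The posterior mesoderm slope became 5.31 without day 5 (-3.69 to 5.31 without 1 library). The PGC slope became 0.41 with DESeq2, its day 4 step 0.75 with DESeq2, 0.26 with TMM and 0.18 without the day 3.5 library of exp2 and 0.08 without the day 4 library of exp1 (-0.69 to 0.18 without 1 library), and its day 5 step 0.32 with TMM and 0.42 without allantois in the total. The mesenchyme step at day 5 became 0.20 with TMM, 0.30 without allantois and 0.72 with the block, the HE step at day 5 0.23 with the block, and the HE precursor step at day 4.5 0.41 with DESeq2, 1.33 in cells of higher RNA count and 0.70 without the day 4 library of exp2 (-1.34 to 0.70 without 1 library). Leaving out shared barcodes, chosen after seeing the data, changed no count by over 1.5 times. The number of cells limits types near 0: a count of 0 leaves room for 0.101% to 0.255%.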
